A study of Mus musculus with 3 samples.

Results

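The genes described here encode the constitutive proteasome and its activators, measured in the mouse macrophage line RAW264.7, which derives from a tumour, at 0, 2 and 12 h of lipopolysaccharide (LPS), the bacterial outer membrane component that Toll-like receptor 4 recognises. Members were chosen by symbol alone: every mouse gene whose annotated symbol begins with Psma, Psmb, Psmc, Psmd or Psme and a digit, leaving out the immunoproteasome genes Psmb8, Psmb9 and Psmb10, with at least 1 probe set annotated to that gene only. The rule found 40 of the 12393 genes named on the arrays. They comprise 15 genes of the 20S core (8 of the alpha ring, 7 of the beta ring), 17 of the 19S particle (9 of the base, 8 of the lid), 3 base assembly chaperones, the PA28 genes Psme1 and Psme3, the PA200 gene Psme4, and 2 genes that match by symbol but encode no subunit, Psmc3ip and Psme3ip1. The PA28 partner Psme2 and its copy Psme2b are read only by a probe set annotated to both, so no value is given for either. Each time was represented by 1 array of the same cell line, 3 arrays in all, and the 0 h array is the one without LPS exposure. The dose is not given in the sources used here, and no untreated array at 2 or 12 h was analysed, so LPS and time in culture cannot be told apart.

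The 26S proteasome degrades proteins that carry ubiquitin chains. Its 20S core is a barrel in which outer alpha rings form the gate and inner beta rings hold the catalytic sites, and its 19S particle holds a base, whose ATPases unfold the substrate, and a lid, which removes the ubiquitin. PA28 and PA200 are alternative caps that open the core without ATP. In macrophages exposed to interferon, inducible catalytic subunits replace constitutive ones to form the immunoproteasome, which cuts peptides for MHC class I presentation, and NF-kB signalling itself needs the proteasome to degrade IkB proteins. When proteasome activity falls short, the factor NFE2L1 binds antioxidant response elements in subunit promoters and raises their transcription together.

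Upstream sequences are shown for the 6 subunit genes that were at least 1.5-fold higher at 12 h than at 0 h, and for the catalytic subunit genes Psmb5 and Psmb6, which hold an antioxidant response element core. Each is the 250 bases before a RefSeq transcript start (GRCm38.p6), written 5′ to 3′ on the gene's own strand. Capitals mark 2 motifs on either strand, the ETS factor core CCGGAAG and the antioxidant response element core TGACNNNGC, and no sequence shown holds both. Psmd1, Psma7, Psmc5 and Psmd14 hold neither in this window and stand in lower case throughout.
Psmd1, chr1:86064369-86064618, + strand: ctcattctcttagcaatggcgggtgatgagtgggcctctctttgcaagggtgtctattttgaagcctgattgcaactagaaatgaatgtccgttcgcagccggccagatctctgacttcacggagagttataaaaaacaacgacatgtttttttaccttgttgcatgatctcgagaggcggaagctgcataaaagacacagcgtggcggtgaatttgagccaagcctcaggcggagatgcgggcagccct
Psma6, chr12:55398575-55398824, + strand: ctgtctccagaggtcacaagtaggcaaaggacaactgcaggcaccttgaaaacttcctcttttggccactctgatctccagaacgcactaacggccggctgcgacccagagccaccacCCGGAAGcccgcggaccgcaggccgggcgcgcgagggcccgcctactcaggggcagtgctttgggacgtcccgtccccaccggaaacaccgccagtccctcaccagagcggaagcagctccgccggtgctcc
Psmd11, chr11:80428365-80428614, + strand: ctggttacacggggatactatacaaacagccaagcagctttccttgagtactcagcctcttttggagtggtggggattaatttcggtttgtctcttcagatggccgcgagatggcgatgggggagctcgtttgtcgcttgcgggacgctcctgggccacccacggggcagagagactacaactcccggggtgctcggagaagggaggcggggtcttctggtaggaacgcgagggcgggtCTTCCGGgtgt
Psma7, chr2:180042465-180042714, - strand: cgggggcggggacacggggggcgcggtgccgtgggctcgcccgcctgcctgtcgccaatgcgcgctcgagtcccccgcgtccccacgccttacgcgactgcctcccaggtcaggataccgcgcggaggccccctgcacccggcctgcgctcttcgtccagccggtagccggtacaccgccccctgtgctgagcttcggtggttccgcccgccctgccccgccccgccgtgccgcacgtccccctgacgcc
Psmc5, chr11:106255935-106256184, + strand: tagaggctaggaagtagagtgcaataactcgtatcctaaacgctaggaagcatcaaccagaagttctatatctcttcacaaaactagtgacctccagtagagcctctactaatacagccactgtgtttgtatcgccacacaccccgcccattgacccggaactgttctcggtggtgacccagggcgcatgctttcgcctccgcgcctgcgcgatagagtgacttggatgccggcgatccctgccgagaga
Psmd14, chr2:61711444-61711693, + strand: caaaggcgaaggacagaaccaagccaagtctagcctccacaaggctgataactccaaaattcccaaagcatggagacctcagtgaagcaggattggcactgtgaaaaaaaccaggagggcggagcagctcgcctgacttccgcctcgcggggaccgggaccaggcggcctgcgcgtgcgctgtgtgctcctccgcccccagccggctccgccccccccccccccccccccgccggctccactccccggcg
Psmb5, chr14:54617996-54618245, - strand: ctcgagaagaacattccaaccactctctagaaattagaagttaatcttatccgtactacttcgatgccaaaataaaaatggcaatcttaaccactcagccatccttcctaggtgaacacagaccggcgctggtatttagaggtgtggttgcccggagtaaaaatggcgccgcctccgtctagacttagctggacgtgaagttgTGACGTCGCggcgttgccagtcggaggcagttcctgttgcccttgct
Psmb6, chr11:70525107-70525356, + strand: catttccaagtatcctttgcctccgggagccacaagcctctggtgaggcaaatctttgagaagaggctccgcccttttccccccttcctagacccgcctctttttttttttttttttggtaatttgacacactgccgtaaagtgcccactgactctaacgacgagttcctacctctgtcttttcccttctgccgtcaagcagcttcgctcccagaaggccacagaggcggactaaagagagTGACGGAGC

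Psma6 has another RefSeq start upstream, whose window held neither motif. Of the 40 members, 33 had a promoter in the table. Among them, 25 genes of the constitutive 26S proteasome had 27 promoters. The ETS core stood in 10 of these 27 promoters (37.0%), against 6.91% of all 32851 promoters in the table and 14.7% of the 7794 promoters of genes above the detection floor (signal 34.96) on every array. It was found in 9 subunit genes, Psma6, Psmc1, Psmc2, Psmc6, Psmd2, Psmd4, Psmd6, Psmd11 and Psmd12. At 12 h against 0 h those 9 genes had a median log2 difference of 0.44 (0.18 to 0.83), and the 16 subunit genes without the core had 0.32 (0.030 to 1.16), so the ranges overlapped. The antioxidant response element core was in 4 of the 27 promoters (14.8%), against 10.2% of all promoters and 11.3% of those of genes above the floor. Counted from the start, its first base lay at -47 in Psmb5, -9 in Psmb6, -227 in Psmc6 and -247 in Psmd12. A CCAAT box, the letters CCAAT on either strand, was in 10 of the 27 (37.0%), against 33.8% of all and 34.9% for genes above the floor. The AP-1 motif TGANTCA was in none of the 27 windows, against 6.75% of all promoters and 4.54% for genes above the floor. These matches describe letters in a window and do not show binding.

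Signals are the authors' linear probe set intensities, rescaled here to one 2% trimmed mean per array. The floor of 34.96 is the 40th percentile of scaled values other than controls. A gene with several probe sets is represented by its brightest, chosen on mean log2 signal. All 40 members were above the floor on all 3 arrays with that probe set. Since each time has 1 array, no replicate, test or p-value exists, and the only call made is a difference of at least 1.5-fold (0.58 on the log2 scale). The only error that the arrays hold is how far probe sets for the same gene disagree, an SD on the log2 scale of 0.32 (2 h against 0 h), 0.34 (12 h against 0 h) and 0.31 (12 h against 2 h) over 2607 genes. Over the 15 members with several probe sets above the floor it was 0.32, 0.25 and 0.36. Differences between cultures were not measured, and the 3 comparisons share arrays. Of 9 macrophage markers, 8 were above the floor on every array, with summed signals of 18757, 19256 and 20636 at 0, 2 and 12 h, and only Mrc1 was under it. Among 31 markers of T, B, dendritic and mast cells, neutrophils, fibroblasts and epithelium that were on the arrays, 7 were above the floor on every array, with summed signals over all 31 of 1161, 984 and 1285 at 0, 2 and 12 h, the brightest being Zap70 at 261 to 359. The dendritic cell list had summed signals of 150, 174 and 359 at 0, 2 and 12 h, including Itgax at 69.7, 87.8 and 241, and its part in the 12 h results was not tested.

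After 12 h of LPS nearly every constitutive 26S gene had a slightly higher signal than at 0 h. Leaving out Psma8, the testis form, 30 of 31 subunit genes had a higher signal at 12 h than at 0 h, and their median on the log2 scale was 0.30 (1.23-fold). Only Psmb2 was lower. Over all 8619 genes measured in that comparison, 45.2% were above 0 and the median was -0.048. Single values were mostly small: 15 of the 31 exceeded the SD between probe sets (0.34), against 17.8% of all genes. Of the 40 members, 6 were at least 1.5-fold higher, against 8.27% of all genes, and none was 1.5-fold lower, against 10.3% of all genes. Just 1, Psmd1, reached 2-fold higher, which 3% of all genes did. Psmd1, Psma6 and Psma7 kept the 1.5-fold call under each alternative of scaling, floor and probe set choice. Psmd14 lost it with quantile normalization (0.47), and Psmd14 and Psmc5 lost it, both at 0.58, with the pseudocount. Without suffixed probe sets Psmd11 lost it (0.12) and Psmd14 was not read. With arrays, more RNA per cell and more cells carrying the transcript cannot be told apart.

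**Figure D1:**
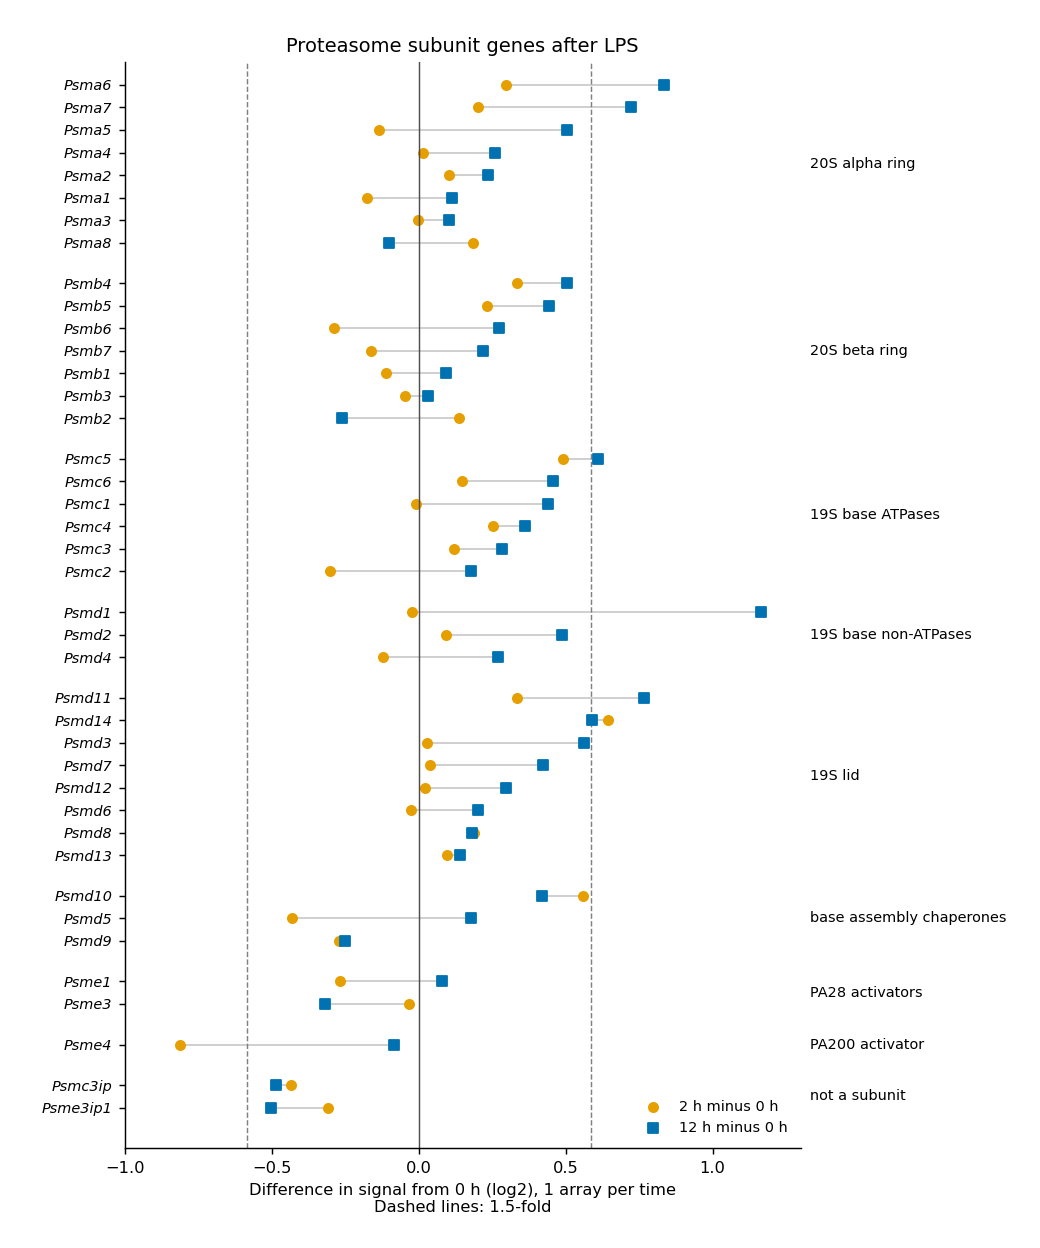
Difference in signal from 0 h on the log2 scale for each of the 40 members, by place in the complex, with circles for 2 h and squares for 12 h, 1 array per time; dashed lines mark 1.5-fold. The squares of 30 of 31 constitutive 26S genes lie right of 0, Psmd1 farthest at 1.16, while the circles lie on both sides.

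The alpha ring genes encode the outer rings that gate the core. Psma6 had signals of 1528, 1877 and 2724 at 0, 2 and 12 h, a 1.78-fold higher value at 12 h than at 0 h and the largest in the ring. Psma7 had 1055, 1215 and 1741, which is 1.65-fold higher at 12 h. Both genes were higher at each later time. Psma5 had 1376, 1253 and 1951, so that it stood 1.42-fold above 0 h at 12 h but 1.56-fold above 2 h. The remaining 4 constitutive alpha genes moved little. Psma4, Psma2, Psma1 and Psma3 had log2 differences of 0.26, 0.24, 0.11 and 0.10 at 12 h against 0 h, all inside the SD between probe sets. Psma3 had the smallest of these differences, with signals of 1454, 1450 and 1563. Psma8, which replaces another alpha subunit in the testis, had 76.8, 87.3 and 71.6, without a difference of 1.5-fold in any comparison. The median over the 7 constitutive alpha genes was 0.26 at 12 h against 0 h and 0.014 at 2 h against 0 h.

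The beta ring holds the 3 catalytic subunits and 4 structural ones, and none of its 7 genes reached 1.5-fold in any comparison by its brightest probe set. Over all genes, 5.59% to 10.1% were called higher and 6.44% to 10.3% lower, so none of 7 is close to the background. Dimmer sets did pass: one of Psmb4 was 1.68-fold higher at 12 h than at 0 h and 2.01-fold higher than at 2 h. One of Psmb3 was 1.52-fold higher at 12 h than at 2 h. Psmb5, the chymotrypsin-like site, had signals of 1212, 1422 and 1648 at 0, 2 and 12 h. It was 1.36-fold higher at 12 h than at 0 h. Psmb6, the caspase-like site, had 963, 789 and 1162, and Psmb7, the trypsin-like site, had 2073, 1852 and 2413. Both were lowest on the 2 h array, and at 12 h they were 1.21-fold and 1.16-fold above 0 h. Among the structural genes, Psmb4 stood highest with 1658, 2090 and 2354, or 1.42-fold at 12 h against 0 h. Psmb1 and Psmb3 were nearly level, with log2 differences of 0.093 and 0.030 at 12 h against 0 h. Psmb2 went the other way from the rest of the ring, with 801, 881 and 668, which is 1.20-fold lower at 12 h than at 0 h and within the SD between probe sets. Its single probe set allows no check within the gene. The median of the ring was 0.22 at 12 h and -0.046 at 2 h, each against 0 h.

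Each constitutive catalytic subunit has an inducible counterpart that takes its site in the immunoproteasome, and the pairs differed. At 12 h against 0 h the log2 difference was 0.44 for Psmb5 and 0.84 for Psmb8, a constitutive minus immunoproteasome difference of -0.39. For Psmb7 it was 0.22 and for Psmb10 0.67, which leaves -0.45. For Psmb6 it was 0.27 and for Psmb9 -0.11, a difference of 0.39 with the opposite sign. Psmb8 had signals of 292, 293 and 522 at 0, 2 and 12 h, Psmb10 had 248, 237 and 396, and Psmb9 had 199, 197 and 184. The inducible genes were therefore not uniformly higher, and at 2 h against 0 h Psmb8, Psmb9 and Psmb10 had log2 differences of 0.0029, -0.017 and -0.069. Each of these genes was read by 1 probe set, and a difference between 2 such values carries the error of both.

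**Figure D2:**
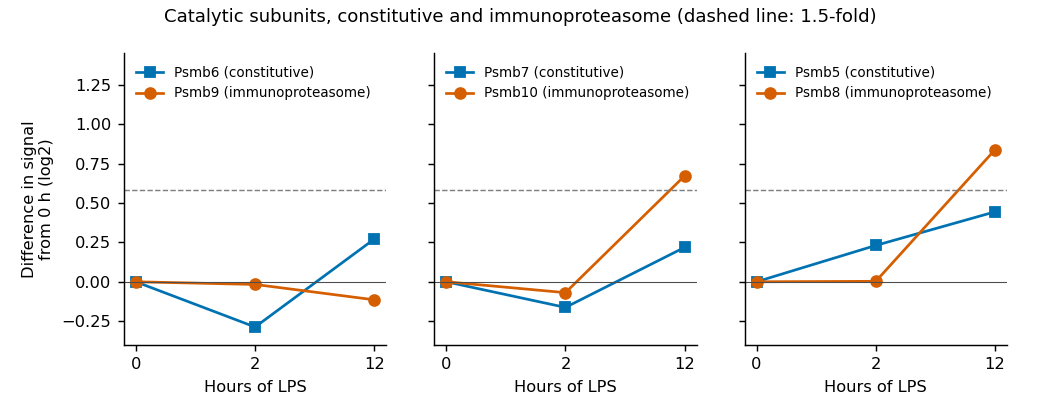
Difference in signal from 0 h on the log2 scale at 0, 2 and 12 h of LPS for each constitutive catalytic subunit (squares) and its immunoproteasome counterpart (circles), 1 array per time; the dashed line marks 1.5-fold. At 12 h Psmb8 and Psmb10 pass that line and Psmb5 and Psmb7 do not, while Psmb6 lies above Psmb9.

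In the 19S base all 9 genes were higher at 12 h than at 0 h, and the median was 0.44 on the log2 scale. Psmd1, a large scaffold subunit, had signals of 713, 702 and 1597 at 0, 2 and 12 h, which is 2.24-fold higher at 12 h than at 0 h and 2.28-fold higher than at 2 h. Its difference from 0 h exceeded that of 97.6% of all genes, and it was the largest of all members. At 2 h it was still level with 0 h, and with a single probe set the value could not be checked within the gene. Psmd2, the other large scaffold, which docks ubiquitin shuttles, had 974, 1039 and 1367, or 1.40-fold. Psmd4, a ubiquitin receptor, had 929, 854 and 1119, or 1.20-fold. The ATPases form the hexameric ring that unfolds substrates. Psmc5 stood highest among them with 547, 767 and 834, which is 1.53-fold higher at 12 h and 1.40-fold higher already at 2 h. Psmc6, Psmc1, Psmc4 and Psmc3 followed at 1.37-fold, 1.36-fold, 1.29-fold and 1.22-fold at 12 h against 0 h. Psmc2 was the lowest by its brightest probe set, with 1036, 841 and 1172, or 1.13-fold at 12 h and 1.23-fold lower at 2 h. Its other probe set had 748, 820 and 1105, which is 1.10-fold higher at 2 h and 1.48-fold higher at 12 h. The median of the 6 ATPase genes was 0.40 at 12 h and 0.13 at 2 h.

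The 8 lid genes found by the symbol rule were also all higher at 12 h than at 0 h. Their median was 0.36 on the log2 scale. Psmd11, which clamps the lid to the core, had signals of 1745, 2203 and 2968 at 0, 2 and 12 h, a 1.70-fold higher value at 12 h. Psmd14, the deubiquitinase that strips chains from substrates, had 1396, 2180 and 2101. It was 1.56-fold higher at 2 h and 1.51-fold higher at 12 h. By brightest probe sets it was the only member at least 1.5-fold higher at 2 h. Dimmer sets of Psmc4 and Psma6, at 2.85-fold and 1.53-fold, also passed 1.5-fold at 2 h. By their brightest probe sets, Psmd14 was level between 2 and 12 h, whereas Psmd11 had its highest value at 12 h. The other Psmd11 sets above the floor gave log2 differences of 0.89, 0.22, 0.078 and -0.031 at 12 h against 2 h. Its timing therefore depended on the probe set. Psmd3, a structural subunit, had 425, 433 and 628, or 1.48-fold at 12 h, just short of the call. Psmd7, the partner of Psmd14 in its catalytic module, had a 12 h value 1.34-fold above 0 h. For the structural subunits Psmd12, Psmd6 and Psmd8 it was 1.23-fold, 1.15-fold and 1.13-fold. Psmd13 was the lowest of the lid with 367, 393 and 404, or 1.10-fold.

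**Figure D3:**
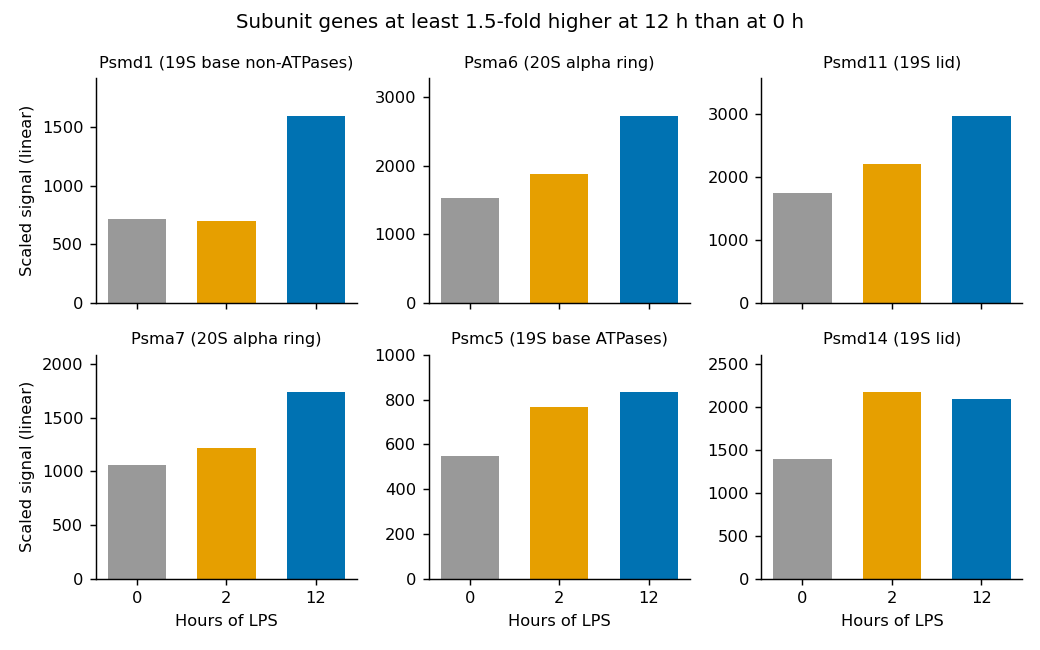
Scaled linear signal at 0, 2 and 12 h of LPS, 1 array per bar, for the 6 members at least 1.5-fold higher at 12 h than at 0 h; each axis starts at 0 and has its own range. Psmd1 differs at 12 h alone, whereas Psmd14 and Psmc5 have most of their difference by 2 h.

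Genes of the assembly chaperones and activators had no common direction. Psmd10, the base chaperone also called gankyrin, had signals of 257, 379 and 344 at 0, 2 and 12 h, or 1.47-fold higher at 2 h and 1.34-fold higher at 12 h. Psmd5 had 493, 366 and 558 and so was 1.35-fold lower at 2 h, and 1.52-fold higher at 12 h than at 2 h. Psmd9 had 197, 163 and 165, lower on both later arrays by under 1.5-fold. Psme1, the interferon-inducible PA28 alpha gene, had 754, 626 and 797. Its values were 1.20-fold lower at 2 h and 1.06-fold higher at 12 h. Psme3, the nuclear PA28 gamma gene, had 386, 377 and 309, or 1.25-fold lower at 12 h, and its other probe set above the floor differed by 0.13 in the opposite direction. The 2 PA28 genes had a median of -0.15 at 2 h and -0.12 at 12 h, each against 0 h.

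Psme4, which encodes the nuclear activator PA200, was the only member called lower in any comparison by brightest probe sets. By its brightest probe set it gave signals of 389 (0 h), 221 (2 h) and 367 (12 h), which is 1.76-fold lower at 2 h than at 0 h and 1.66-fold higher at 12 h than at 2 h. The other 2 probe sets did not share that size. One had 306, 256 and 309, a log2 difference of -0.25 at 2 h, and the other 186, 196 and 249, a difference of 0.078. The median over the 3 was -0.25, so the call at 2 h rests on 1 probe set, which carries a cross-hybridisation suffix. At 12 h against 2 h the other sets gave 0.27 and 0.34, likewise short of the call. The symbol matches that encode no subunit were lower at both times: Psmc3ip, a meiotic recombination factor, had 166, 123 and 119, and Psme3ip1, which encodes a partner of PA28 gamma, had 263, 213 and 186. Neither reached 1.5-fold.

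At 2 h the 26S genes were split relative to 0 h, with 19 of 31 above 0 and a median log2 difference of 0.037, while all genes had a median of -0.10 and 37.6% above 0. Of the 40 members, 1 was at least 1.5-fold higher (Psmd14), against 5.59% of all genes, and 1 was lower (Psme4), against 9.63% of all genes. Psmc5, Psmd11, Psmb4 and Psmd14 were the 26S genes whose difference at 2 h exceeded the SD between probe sets (0.32), or 4 of 31, against 12.9% of all genes, so their share was at the background. The sign of the median turned under quantile normalization, to -0.0055 with 15 of 31 above 0, and with arrays set to one median it was 0.18 with 27 above 0. No direction is therefore given for the 26S genes as a group at 2 h.

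Of the 31 genes, 28 had more signal at 12 h than at 2 h (median log2 difference 0.28), against 55.7% above 0 and a median of 0.050 over all genes. The exceptions were Psmb2, Psmd14 and Psmd8. Of the 40 members, 4 were at least 1.5-fold higher, against 10.1% of all genes, namely Psmd1, Psme4, Psma5 and Psmd5, and none was lower, against 6.44% of all genes. That share is close to the background. Ranked by array, 28 of the 31 had their highest signal on the 12 h array, 3 on the 2 h array and none on the 0 h array. Among 7326 genes above the floor on every array, 33.0% had it at 12 h and 43.8% at 0 h. A higher signal at each step was seen in 16 of the 31 (51.6%), against 14.9% of those genes. Both shares need the sign at 2 h against 0 h, which moved with the scaling. There, 15 of the 31 were above 0 with quantile normalization and 27 with median scaling.

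Probe sets of one gene gave a check within the array. Over the 31 subunit genes there were 49 probe sets above the floor on every array, and 46 of them were higher at 12 h than at 0 h (median 0.42). The 49 include the brightest set of each gene, already counted above, and a gene with several sets counts more than once. No share over all probe sets was computed. All 3 probe sets of Psma6 above the floor were higher at 12 h, by 0.83, 0.90 and 0.53. Both of Psma7 were, by 0.72 and 0.46, as were all 5 of Psmd11, by 0.77, 0.67, 0.62, 0.47 and 0.12. The direction of these called genes did not depend on the probe set, although their size did: Psmd11 was at 0.12 with its brightest set among those without a cross-hybridisation suffix. Psma5 passed 1.5-fold at 12 h against 0 h by its other probe set (0.64) and not by the brighter one (0.50). Psmc2 likewise was at 0.56 by its other set and 0.18 by the brighter one, Psmb3 at 0.29 and 0.030, and Psmd6 at 0.39 and 0.20, so for these genes the brighter set gave the smaller value. The 3 sets of Psmd4 gave 0.52, 0.27 and 0.013. Psmd1, Psmc5 and Psmd14 had no second probe set. The largest disagreement was in Psmc4, whose brighter probe set had signals of 513, 611 and 660, while the other had 184, 525 and 258. At 2 h against 0 h these gave 0.25 and 1.51, and at 12 h against 2 h 0.11 and -1.03. The dimmer Psmc4 set was thus past 1.5-fold lower at 12 h against 2 h. In Psmb4 the 2 probe sets had the same direction at 12 h against 0 h (0.51 and 0.75) and opposed each other at 2 h (0.33 and -0.26). At 12 h against 2 h they gave 0.17 and 1.01. Psmc6 and Psmd13 each had a dimmer probe set that was lower at 12 h, by -0.40 and -0.12, against 0.46 and 0.14 for the brighter one.

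**Figure D4:**
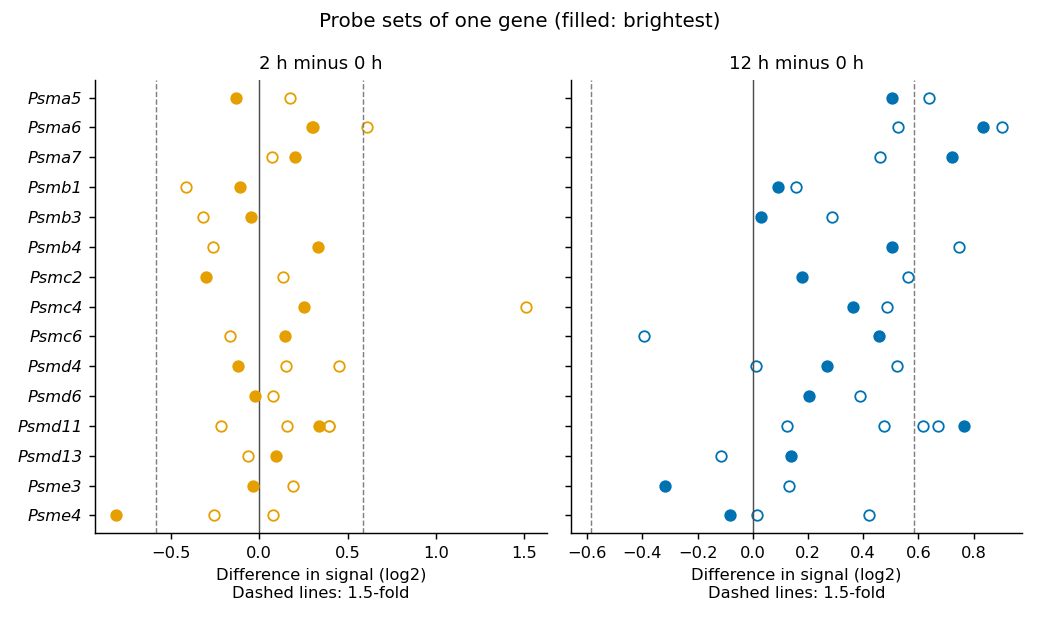
Difference in signal from 0 h on the log2 scale at 2 h (left) and 12 h (right) for each probe set of the 15 members with several probe sets above the floor on every array; filled points are the brightest set of a gene and dashed lines mark 1.5-fold. At 12 h most points lie right of 0, and at 2 h the second probe set of Psmc4 stands apart at 1.51.

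Set side by side, the 19S genes had the higher median at 12 h against 0 h, 0.42 over 17 genes, all of them above 0. The 15 core genes, Psma8 included, had 0.24 with 13 above 0, and the 2 PA28 genes had -0.12 with 1 above 0. The PA28 median lay between -0.14 and -0.0077 under the alternatives of scaling, floor and probe set choice, inside the SD between probe sets (0.34). Called 1.5-fold higher were 4 of the 17 (23.5%) and 2 of the 15 (13.3%), against 8.27% of all genes. The 19S genes varied among themselves with an SD of 0.26 and the 14 constitutive core genes with an SD of 0.29, so the 2 groups overlapped widely, and no test between them was possible. At 2 h against 0 h the medians were 0.093, 0.014 and -0.15, and at 12 h against 2 h they were 0.31, 0.21 and 0.031. The median of the 26S genes at 12 h against 0 h kept its sign under each of the 8 alternatives of scaling, floor and probe set choice: it lay between 0.26 and 0.34, with 28 to 30 of 31 genes above 0, or 22 of 23 where sets with a cross-hybridisation suffix were left out. The subunit genes are bright, with a median at the 96.6th percentile of the 12 h array. Across the 3099 brightest genes, which include 37 members, the median at 12 h against 0 h was -0.035 and 46.4% were above 0.

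**Figure D5:**
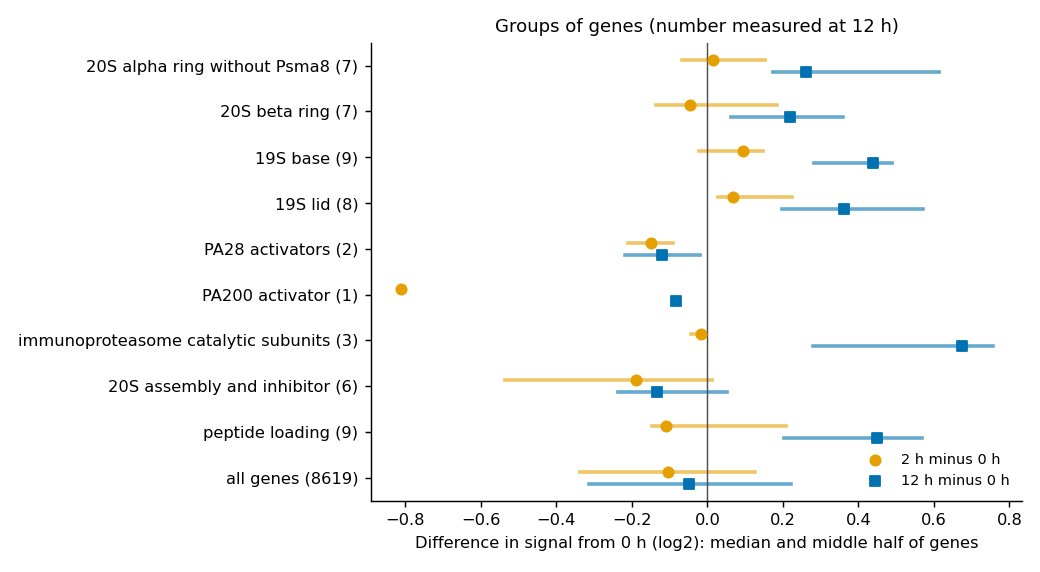
Difference in signal from 0 h on the log2 scale by group of genes, with circles for 2 h, squares for 12 h and lines over the interquartile range; numbers in brackets are genes measured. At 12 h the alpha ring, beta ring, base and lid have medians of 0.26, 0.22, 0.44 and 0.36, against -0.048 over all genes.

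Of 6 genes that build or restrain the core, none was 1.5-fold from 0 h at 12 h, against 8.27% of all genes higher and 10.3% lower. Their median log2 difference was -0.13 with 2 above 0, against 45.2% of all genes above 0. Pomp, the maturation factor of the core, had signals of 1069, 841 and 1319 at 0, 2 and 12 h, or 1.23-fold higher at 12 h than at 0 h. The assembly chaperone genes Psmg3 and Psmg2 were 1.59-fold and 1.52-fold lower at 2 h than at 0 h, a call that 9.63% of all genes had. Psmg1 was level, Psmg4 was 1.40-fold lower at 12 h, and the inhibitor gene Psmf1 was 1.30-fold higher at 2 h.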

How the data were processed

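Values are intensities on a linear scale that the authors deposited for 3 one-colour Affymetrix-type arrays of 22690 probe sets, without detection calls. Per the labels' protocols, RNA was extracted from RAW264.7 cells and 5 µg was labelled by a modified Affymetrix procedure; which software made the values is not given in the sources used here. In the deposited values, the 2% trimmed mean was 150.05 to 150.06 over the arrays, so values are relative and a change in total mRNA would not be seen.

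The 64 control probe sets were set aside, and by the platform annotation, which can be old, 20393 probe sets named 1 gene, 691 named several and 1606 were not listed. Names were updated through RefSeq (GRCm38.p6), where 20364 matched. The number of arrays, 1 per time, limits the precision; no replicate, test or p-value exists. Every member was named, genes outside the rule came only from the fixed lists, and 37 of the 45 genes on those lists had a probe set of their own under that name. Members, lists, motifs and the call of 1.5-fold were chosen with earlier results of these data known. The median over the brightest genes, the count of probe sets and the ETS comparison were added after values were seen. Alternatives were other scalings, a lower floor (20th percentile) and a higher one (60th), the floor used as a pseudocount, the median over probe sets, no suffixed probe sets, and a fold of 2. The calculation was tested on simulated data. Python 3.11.15, numpy 2.4.6 and pandas 2.3.3 were used.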

Additional observations from a re-analysis of the deposited data

How the results depend on the processing

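Medians of the members, the core, the 19S particle and PA28 moved by less than the SD between probe sets under every scaling, floor and probe set alternative. Counts of called members moved where they were small. Higher at 2 h against 0 h, reported as 1, were 3 with median scaling, 2 with the median over probe sets, 0 without suffixed probe sets and 0 at 2-fold. Lower at 2 h, reported as 1, were 0 with the median over probe sets, 0 without suffixed probe sets and 0 at 2-fold. Higher at 12 h against 0 h, reported as 6, were 7 with median scaling, 7 with the median over probe sets, 5 with quantile normalization, 4 with the pseudocount, 4 of 31 members read without suffixed probe sets, and 1 at 2-fold. Higher at 12 h against 2 h, reported as 4, ranged from 1 (at 2-fold) to 5 (quantile normalization), with 2 under median scaling. In that comparison the other probe sets above the floor of Psme4 (0.27 and 0.34) and Psma5 (0.46) fell short of the call. No called value changed its sign. At 2 h against 0 h the median of all genes was -0.10 as reported and 0.030 with median scaling, and 1.5-fold calls over all genes were 470 higher and 810 lower as reported, 692 and 468 with median scaling, and 554 and 562 with quantile normalization. At 12 h against 2 h they were 857 and 545 as reported and 635 and 777 with median scaling. No paired analysis was possible because each time has 1 array. The cause of these moves was not tested.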

Other observations

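Of 10 genes measured on a list of proteasome-bound factors, 5 were above and 5 below 0 at 12 h against 0 h. Their median log2 difference was -0.020. The list held receptors, shuttles, deubiquitinases and others such as Sem1, with signals of 1065, 904 and 1070 at 0, 2 and 12 h. Usp14, a deubiquitinase that binds the base, had signals of 642, 890 and 693 at 0, 2 and 12 h, a transient 1.39-fold higher value at 2 h. Ubqln4, a ubiquitin shuttle, had 360, 232 and 240 and was 1.55-fold lower at 2 h. The 3 ubiquitin pathway genes measured, Vcp, Nploc4 and Ufd1, were above 0 in every comparison, with a median of 0.33 at 12 h against 0 h, against 45.2% of all genes above 0. Vcp, the segregase that feeds unfolded substrates to the proteasome, was 1.15-fold higher at both times, and its cofactors Nploc4 and Ufd1 were 1.53-fold and 1.25-fold higher at 12 h. Nploc4, read by 1 probe set, was the 1 of 3 past the call at 12 h, against 8.27% of all genes higher.

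Among the factors that drive or process the subunit programme, Nfe2l1 had 217, 259 and 219, close to its starting signal at 12 h. Nfe2l2, the factor NRF2, had 726, 661 and 446 and was 1.63-fold lower at 12 h. Ngly1, the glycanase that NFE2L1 needs for activation, had 87.4, 134 and 143 and was 1.63-fold higher at 12 h. Mafg and Mafk had log2 differences of -0.12 and 0.47 at 12 h against 0 h. Of the 5 genes measured on this list, 1 was called higher and 1 lower, against 8.27% and 10.3% of all genes. Their median was 0.013. In the peptide loading list, 8 of 9 genes were above 0 at 12 h against 0 h with a median of 0.45, against 45.2% of all genes above 0. Tap1 and Tapbp were the 2 of 9 at least 1.5-fold higher, against 8.27% of all genes.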
